A study of Zea mays subsp. mays x Zea mays subsp. mexicana with 20 samples.

Results

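The small RNA loci of the central part of maize chromosomes 1 to 9 were the subject here. A locus is an interval where small RNA reads piled up, and it was counted as central when its midpoint, divided by the largest end of any locus on that chromosome, lay between 0.30 and 0.50. At least 15 reads over 6 libraries were also required. This gave 5809 central loci of the 85421 in the deposited table, and 35401 loci on the rest of the same 9 chromosomes met the same minimum. The rule used position and total reads only and no comparison between genotypes.

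Small RNA of pollen was sequenced from 3 genotypes with 2 libraries each. The study describes those of dcl2T and dcl2-mu1 as biological replicates, while a figure legend of the study gives 3 replicates per genotype. The dcl2T plants were homozygous (dcl2T-/-) for an allele of Dcl2 that came from the teosinte *mexicana*, isolated as maternal recombinants from a lineage that had been crossed to the inbred W22 and then backcrossed. The dcl2-mu1 plants were homozygous for dcl2-mu1, in which a *Mu* element sits in the 5′ leader of Dcl2, and were backcrossed to W22. The Dcl2 plants carried the functional allele. The titles call all of it Tpd pollen, and whether each plant carried the pollen drive haplotypes is not given per sample. An effect of the dcl2T allele and an effect of other *mexicana* sequence in those plants cannot be told apart. The same holds for dcl2-mu1 and any other sequence left from the Uniform-Mu line it was isolated from. Pollen was sampled in bulk, so fewer grains of a kind and less RNA per grain cannot be told apart either. The table names no gene, so neither the labels nor the tissue were checked on marker genes, and read lengths were pooled in the counts.

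Dicer-like enzymes release short interfering RNAs (siRNAs) from paired RNA, and DCL2 is known in plants for siRNAs that arise from hairpins and other long duplexes. Maize centromeres are built from arrays of the CentC satellite repeat mixed with CRM retrotransposons, and they lie within wide pericentromeric regions that are rich in transposons and poor in genes. The stretch used here takes in most maize centromeres, but the table carries no centromere positions, so no locus below is assigned to one.

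Total counts were 4357765 and 4920576 in the dcl2T libraries, 1950081 and 4083990 in dcl2-mu1, and 3966305 and 4392281 in Dcl2. A single read was thus worth between 0.203 and 0.513 CPM (counts per 1000000 counts of the library). The shallow library, dcl2-mu1 replicate 1, had no read at 64.0% of the central loci, against 29.6% in replicate 2 of that genotype and between 10.7% and 21.8% in the 4 other libraries. Coordinates below follow the deposited table, and its genome build was not named in the sources used here.

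Central loci were sparser than loci elsewhere. There were 14.7 loci per Mb in the central stretch and 22.4 per Mb on the rest of chromosomes 1 to 9, a ratio of 0.656. The ratio was below 1 on all 9 chromosomes, with a mean of 0.663 ± 0.0768 (SD, n = 9 chromosomes), from 0.556 on chromosome 7 to 0.801 on chromosome 6. Loci covered 2.23% of the central stretch and 3.42% of the rest, and the median gap between neighbouring loci was 27164 bp against 18880 bp. The decline was gradual along the chromosome: density fell to 14.1 loci per Mb between 0.30 and 0.35, against 28.9 in the first 0.05 of the chromosomes and 32.9 in the last. The bins next to the stretch were nearly as sparse, with 15.4 loci per Mb between 0.25 and 0.30 and 17.0 between 0.50 and 0.55.

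**Figure D1:**
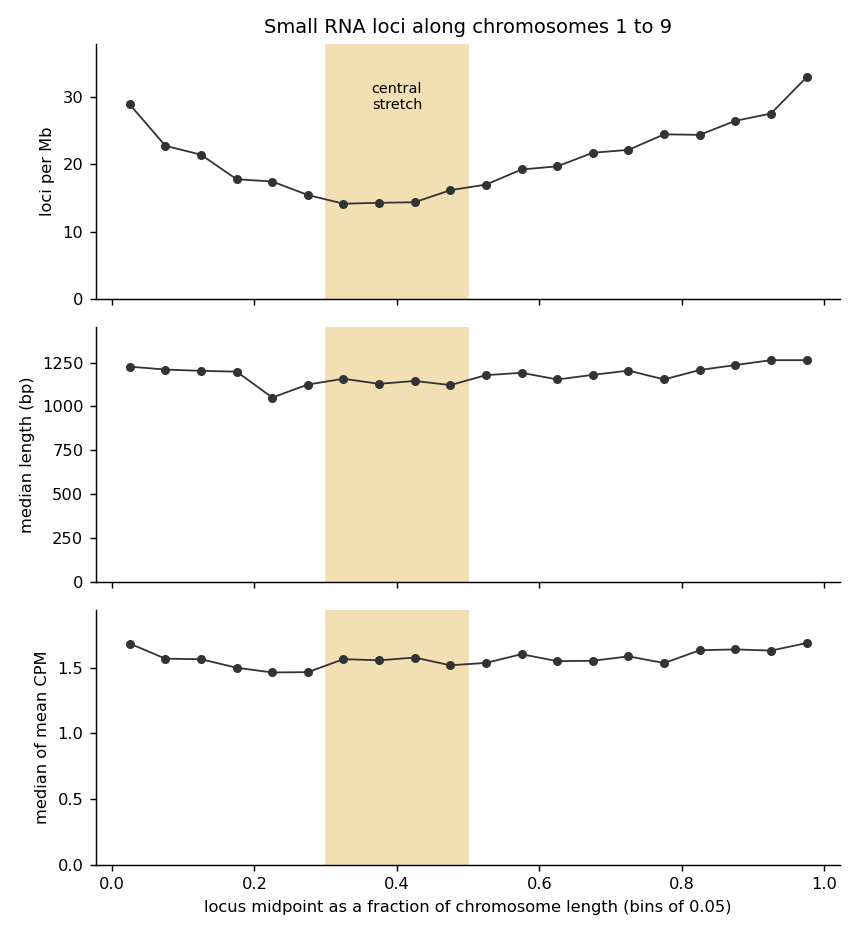
Density (top, loci per Mb), median length (middle, bp) and median abundance (bottom, mean CPM over the 3 genotypes) of loci with at least 15 reads, in bins of 0.05 of the length of chromosomes 1 to 9, with the central stretch shaded. Density reaches its lowest value, 14.1 loci per Mb, within the shaded stretch, while median length and abundance stay nearly flat.

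Density also varied within the stretch. Among its 396 windows of 1 Mb the median was 14 loci, the middle 50% ran from 11 to 18, and the extremes were 0 and 41. The rest of the 9 chromosomes had a median of 21 loci per window, with extremes of 3 and 57. The empty window lay on chromosome 1 between 136 and 137 Mb, and the windows with only 2 loci lay on chromosome 2 between 94 and 95 Mb and on chromosome 4 between 107 and 108 Mb. The fullest was on chromosome 1 between 154 and 155 Mb.

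The minimum of reads removed a larger share of loci inside the stretch than outside. Of 12468 loci of the table inside it, 6659 (53.4%) had fewer than 15 reads and 2440 (19.6%) had none in the 6 libraries. Outside it, 46.7% of loci had fewer than 15 reads and 13.5% had none. Just inside the threshold, 214 loci of the stretch had exactly 15 reads, and just outside it 230 had 14.

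In length and typical abundance the central loci differed little from the rest. Their median length was 1141 bp against 1200 bp, a ratio of 0.951 that was below 1 on all 9 chromosomes (0.945 ± 0.0393, SD, n = 9 chromosomes). Short loci made up a slightly larger share, since 4.42% of central loci and 3.32% of the rest were under 200 bp. The median of mean CPM, the mean of the 3 genotype means, was 1.55 against 1.58. The ratio was 0.981, lay below 1 on 7 of 9 chromosomes and ranged from 0.873 on chromosome 7 to 1.18 on chromosome 3. Per kb of length the medians were 1.55 and 1.53 CPM. When at least 50 reads were required, the length ratio was 1.03, and with at least 1 read the abundance ratio was 0.884.

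The upper end of the range differed more. Only 117 central loci (2.01%) reached a mean of 50 CPM, against 884 (2.50%) of the rest, which made 0.297 and 0.560 such loci per Mb. The most abundant central locus had a mean of 7018 CPM and the most abundant locus of the rest 54464 CPM. Summed over loci, the central stretch held 171 CPM per Mb and the rest 508 CPM per Mb, a ratio of 0.336. The central value was the smaller on all 9 chromosomes. The low sum was not confined to the stretch, whose bins held between 135 and 213 CPM per Mb. The bin between 0.50 and 0.55 held less, 125 CPM per Mb, and that between 0.20 and 0.25 held 174. All other bins outside the stretch held between 228 and 1001 CPM per Mb, with 645 between 0.25 and 0.30. The 10 most abundant central loci held 37.8% of all central counts, and the 10 most abundant of the rest held 26.7% of its counts. Loci of at least 5000 bp were 2.69% of the members and held 23.7% of their counts. On the rest such loci were 2.43% and held a larger part, 38.1%.

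On each chromosome the member with the largest mean CPM was examined. Cluster_36249 (chromosome 4, 117693135 to 117703803) led by far and is described with the genotypes below. Cluster_45086 (chromosome 5, 72823575 to 72824767) had 3543 and 3465 CPM in dcl2T, 2178 and 2632 in dcl2-mu1, and 3195 and 2577 in Dcl2. Cluster_15997 (chromosome 2, 81033425 to 81034597) had 2925 and 3163 CPM in dcl2T, 1444 and 1835 in dcl2-mu1, and 4231 and 3656 in Dcl2. At both loci the dcl2-mu1 libraries were among the lowest, while dcl2T lay above Dcl2 at Cluster_45086 and below it at Cluster_15997. For Cluster_15997 the log2 fold change of dcl2-mu1 against Dcl2 was -1.61 (SE 0.30) (edgeR, Benjamini-Hochberg adjusted p = 0.037), short of the threshold used below.

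Cluster_67466 (chromosome 8, 73430908 to 73432815) had 2825 and 3299 CPM in dcl2T, 2079 and 2397 in dcl2-mu1, and 3296 and 3030 in Dcl2. Cluster_26390 (chromosome 3, 107950074 to 107953591) was nearly level, with 1505 and 1547 CPM in dcl2T, 1794 and 1701 in dcl2-mu1, and 1386 and 1611 in Dcl2. The leading loci of chromosomes 6, 7, 1 and 9, Cluster_52829 (62934782 to 62935928), Cluster_60059 (61413806 to 61419001), Cluster_5935 (154969015 to 154970610) and Cluster_74569 (62086914 to 62096739), had means of 1329, 997, 482 and 202 CPM. None of these 6 was called between genotypes. The longest members were Cluster_15969 (chromosome 2, 79882532 to 79911022, 28491 bp), Cluster_52520 (chromosome 6, 53186682 to 53208625) and Cluster_15917 (chromosome 2, 77431649 to 77449060). They had means of 497, 177 and 93.1 CPM, and none was called.

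Central loci took a small share of every library. The share of the total count was 6.18% and 6.78% in dcl2T, 6.06% and 7.002% in dcl2-mu1, and 7.29% and 7.10% in Dcl2. Both Dcl2 libraries thus lay above the 4 others. The mean was 6.48% ± 0.425 in dcl2T, 6.53% ± 0.666 in dcl2-mu1 and 7.19% ± 0.132 in Dcl2 (SD, n = 2 each), and the exact two-sided permutation test gave p = 0.33 for either mutant against Dcl2, the smallest value that 2 libraries against 2 allow. Between dcl2-mu1 and dcl2T the exact permutation p was 1.

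The higher share in Dcl2 depended on 1 locus. Without Cluster_36249 the shares were 5.91% and 6.53% in dcl2T, 5.44% and 6.56% in dcl2-mu1, and 5.96% and 5.803% in Dcl2, which overlap. At loci under 50 CPM the central stretch held 1.81% and 2.01% of the library in dcl2T, 1.86% and 1.79% in dcl2-mu1, and 1.68% and 1.89% in Dcl2. The rest of chromosomes 1 to 9 held 11.6% and 12.4% at such loci in dcl2T, 12.4% and 11.9% in dcl2-mu1, and 9.70% and 10.4% in Dcl2. As a share of the counts at all such loci of the 9 chromosomes, the central part was therefore 13.5% and 13.97% in dcl2T, 13.1% and 13.1% in dcl2-mu1, and 14.8% and 15.4% in Dcl2. Both Dcl2 libraries were again the highest, with differences of -1.34 percentage points for dcl2T and -1.98 for dcl2-mu1 and an exact permutation p of 0.33 in both.

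Detection was compared after each library had been thinned at random to 1950081 counts. At least 5 counts were then found at 2254 and 2381 central loci in dcl2T, 1711 and 2003 in dcl2-mu1, and 2101 and 2166 in Dcl2. As a share of members this was 38.8% and 41.0% in dcl2T, 29.5% and 34.5% in dcl2-mu1, and 36.2% and 37.3% in Dcl2. The rest of the chromosomes gave 40.3% and 41.8% in dcl2T, 32.6% and 37.5% in dcl2-mu1, and 35.4% in both Dcl2 libraries. The central share was thus below that of the rest in all 4 mutant libraries and above it in both Dcl2 libraries. The 3 genotypes did not overlap in the number of central loci detected, and the exact permutation p was 0.33 for each pair. With at least 20 counts required, the differences turned to -15.5 loci for dcl2T against Dcl2, 66.5 for dcl2-mu1 against Dcl2 and 82.0 for dcl2-mu1 against dcl2T.

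Loci with reads in both Dcl2 libraries and none in either mutant were counted next. There were 63 among the central loci (1.08%) and 72 among the rest (0.203%). Such a locus passed the minimum of 15 reads through Dcl2 alone, in both parts alike. Across bins of 0.05 the share was between 0.717% and 1.56% within the stretch and 0.855% between 0.25 and 0.30. It lay at or below 0.374% in every other bin. The 63 loci were short, with a median of 490 bp, and had a median of 4.03 CPM in Dcl2. The 72 of the rest were short too, with medians of 667.5 bp, against 1200 bp for the whole rest, and 2.72 CPM. The central 63 were spread over 8 of the 9 chromosomes, with 14 on chromosome 5, 10 on chromosome 4 and 0 on chromosome 6. The highest was Cluster_74446 (chromosome 9, 57986104 to 57986275, named after its values were seen), with 21.7 and 25.3 CPM in the Dcl2 libraries. The opposite pattern, reads in both dcl2T libraries only, was found at 1.29% of central loci and 1.10% of the rest, and reads in both dcl2-mu1 libraries only at 0.0689% and 0.105%. These counts were not made at equal depth, and dcl2-mu1 replicate 1 was shallow. The patterns can thus be compared between the parts but not between genotypes.

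The first comparison between genotypes asked at which central loci pollen of the *mexicana* allele differed from pollen of the functional one. The fit was made on the whole table, and 2932 central loci passed the filter on low counts among 22558 loci tested. The quasi-likelihood test of edgeR was used, and a call required a log2 fold change of 2 or more in either direction with a Benjamini-Hochberg adjusted p no higher than 0.01. Only 1 central locus was called lower in dcl2T, against 0.00887% of all tested loci, and 1 was called higher, against 0.0177%. Counts this small did not separate the central loci from the background. Without Dcl2 replicate 1 or 2 edgeR called 0 in both directions, while 93 and 78 central loci were lower and 42 and 38 higher at p under 0.05 before adjustment. The lower call was also lost without dcl2T replicate 1 or 2 or without dcl2-mu1 replicate 1, where 110, 100 and 224 were lower at that unadjusted p, while 1, 2 and 2 loci were called higher, among them the 1 called in the full fit. DESeq2 called 37 central loci lower and 3 higher, 1.26% and 0.102% of those tested, where its background was 0.332% lower and 0.235% higher.

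The locus called lower was the most abundant of all central loci, Cluster_36249, 10669 bp long. It had 2734 and 2490 CPM in dcl2T, 6246 and 4419 in dcl2-mu1, and 13262 and 12955 in Dcl2. The 3 genotypes did not overlap, and the replicates of dcl2T and Dcl2 lay close together. The log2 fold change in dcl2T, -2.49 (SE 0.24), passed the threshold (edgeR, Benjamini-Hochberg adjusted p = 0.0083). In dcl2-mu1 it was -1.70 (SE 0.23) against the same Dcl2 libraries, below the size required for a call. The locus called higher was Cluster_26293 (chromosome 3, 104459965 to 104460160). It was 196 bp long and had 340 and 417 CPM in dcl2T and no read in the 4 other libraries, at least 1055-fold higher than in Dcl2 with a floor of 3 counts over the pair of Dcl2 libraries. Floors cover counting error only.

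At an unadjusted p under 0.05 the central share lay above the background in 1 direction. In both parts the filter on low counts let in loci with reads in Dcl2 alone, which can only be lower in the mutants. The shares are thus a description and not a test. Of those tested, 165 (5.63%) were lower in dcl2T, where the share over all tested loci was 1.92% and that of the rest of the 9 chromosomes 1.24%. In the opposite direction 56 (1.91%) were higher, against 2.14% of all tested loci. The central share lower in dcl2T lay between 2.66% without Dcl2 replicate 2 and 7.67% without dcl2-mu1 replicate 2, and in each of these 6 fits the share of the rest was smaller, at most 2.66%. Without the filter the central share was 3.94% and that of the rest 1.18%. With a filter of 5 CPM in 2 libraries they were 8.14% and 2.04%. By chromosome the central share of the full fit ran from 1.31% on chromosome 6 and 1.91% on chromosome 8 to 11.2% on chromosome 4, with 3.83% to 7.39% on the others. These loci had a median length of 951 bp and a median of 4.04 CPM, against 1494 bp and 3.09 CPM over all tested central loci.

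**Figure D2:**
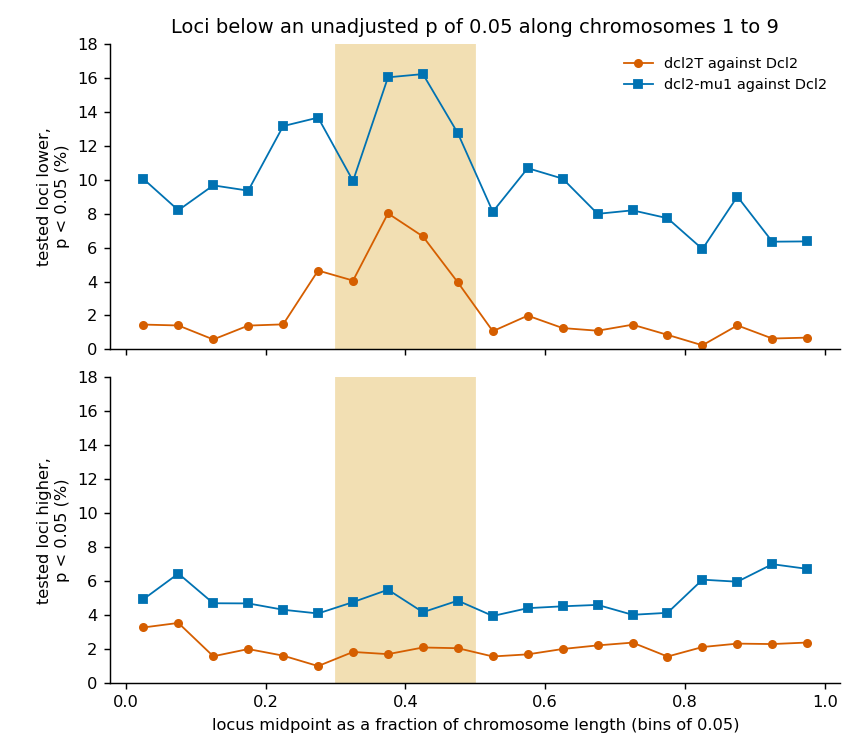
Percent of tested loci in each bin of 0.05 of the length of chromosomes 1 to 9 that were lower (top) or higher (bottom) in dcl2T and in dcl2-mu1 than in the shared Dcl2 libraries at an unadjusted p under 0.05, with the central stretch shaded. In dcl2T the lower share peaks at 8.02% between 0.35 and 0.40, and the higher share has no such peak.

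The loci lower in dcl2T were not spread evenly over the stretch. By bins of 0.05 they made up 4.06%, 8.02%, 6.66% and 3.95% of tested loci from 0.30 to 0.50, with 4.65% in the bin just before it. All other bins of the chromosomes lay between 0.243% and 1.99%. On single chromosomes they piled up within a few Mb. On chromosome 4, 19 of the 38 loci lower in dcl2T lay within 1.54 Mb, between 109.4 and 110.9 Mb, whereas the shortest stretch with 50% of the 339 tested loci there spanned 23.1 Mb. The shortest stretch is picked from the data and tends to be shorter for fewer loci, so these spans are a description and not a test. On chromosome 2, 11 of 21 lay between 95.4 and 96.9 Mb, on chromosome 3, 13 of 26 between 86.7 and 88.5 Mb, and on chromosome 9, 9 of 18 between 54.2 and 55.5 Mb. Chromosome 1 had 9 of 17 between 135.6 and 139.0 Mb, and chromosome 5 had 14 of 27 between 106.3 and 109.8 Mb. Chromosomes 6, 7 and 8 had 4, 8 and 6 such loci, too few to describe a spread.

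When whole chromosomes were searched, the 1 Mb window with the most loci lower in dcl2T lay in the central stretch on 7 of the 9 chromosomes. On chromosome 8 a central window, between 61 and 62 Mb, tied with 1 at 0.249 of the length, with 4 loci each. On chromosome 6 it lay at 0.294, just outside the stretch, with 8 of 16 tested loci lower. The largest number was on chromosome 4 between 110 and 111 Mb, with 14 of 19 tested loci.

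**Figure D3:**
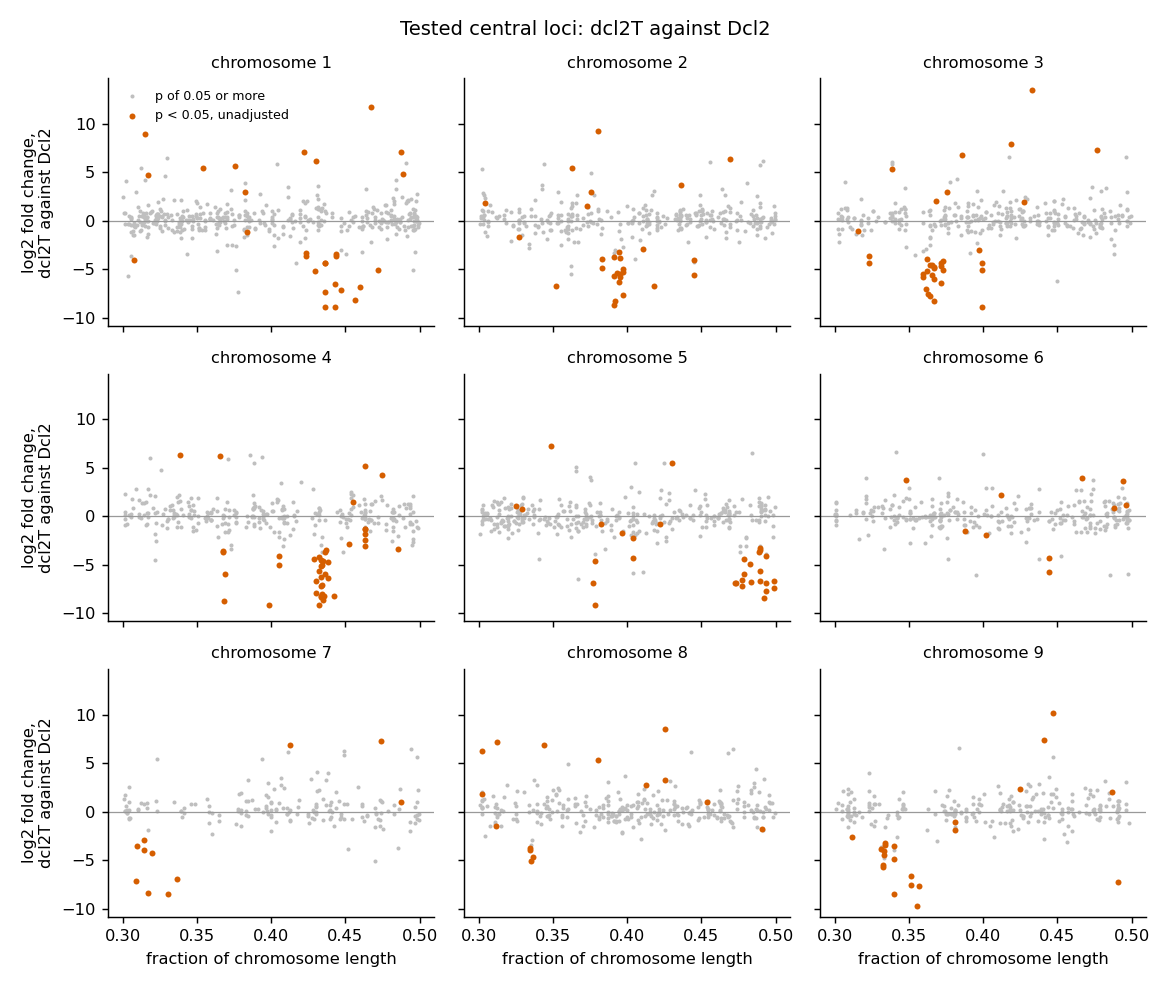
Fitted log2 fold change of dcl2T against Dcl2 for each of the 2932 tested central loci, by position as a fraction of the length of its chromosome, with loci at an unadjusted p under 0.05 in colour. The coloured loci below 0 gather in narrow groups, as on chromosome 4, where 38 were lower, while those above 0 are scattered.

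To follow these groups with more reads per unit, the counts of all loci were summed in windows of 1 Mb and fitted in the same way. This fit was chosen after the loci had been seen to gather. Of 394 central windows tested, 1 was called lower in dcl2T, against 0.0941% of all windows, and none was called higher, as elsewhere (0% of all windows). At an unadjusted p under 0.05, 46 central windows were lower and 14 higher in edgeR's test, against 116 (5.46%) and 83 (3.91%) of all 2125 windows. DESeq2 called 5 lower and 2 higher, where its background was 0.424% and 0.188%. The window called lower lay on chromosome 2 between 96 and 97 Mb and held 21 loci. It had 29.1 and 34.3 CPM in dcl2T, 17.4 and 14.2 in dcl2-mu1, and 110 and 126 in Dcl2. All 4 mutant libraries were below both Dcl2 libraries, and no locus held more than 16.03% of the window. The log2 fold change in dcl2T was -2.12 (SE 0.24) (edgeR, Benjamini-Hochberg adjusted p = 0.00702). Without either library of dcl2T or of Dcl2, 0 central windows were called lower, with 28 to 34 at an unadjusted p under 0.05, and without either dcl2-mu1 library 6 were called lower and 2 higher.

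Several windows missed the threshold narrowly in dcl2T. On chromosome 4 between 110 and 111 Mb the sums were 14.5 and 7.72 CPM in dcl2T, 18.5 and 5.88 in dcl2-mu1, and 127 and 218 in Dcl2. The window held 25 loci with a median length of 376 bp, and both mutants were below Dcl2 at every library. In dcl2T its log2 fold change was -4.17 (SE 0.53) (edgeR, Benjamini-Hochberg adjusted p = 0.0101). On chromosome 5 between 108 and 109 Mb the sums were 34.4 and 41.1 CPM in dcl2T, 43.1 and 44.3 in dcl2-mu1, and 124 and 123 in Dcl2. The log2 fold change of -1.94 (SE 0.23) in dcl2T was too small for a call there (edgeR, Benjamini-Hochberg adjusted p = 0.00702).

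The second comparison set the insertion allele against the same Dcl2 libraries. Of the tested central loci 7 (0.239%) were called lower in dcl2-mu1, against 0.186% of all tested loci, and 10 (0.341%) were called higher, against 0.235%. Both shares were near this background of all tested loci. On the rest of the chromosomes 17 loci (0.0953%) were called lower and 36 (0.202%) higher. The central shares lay above these values, more clearly for lower loci, but they rest on few calls. Without Dcl2 replicate 1 or 2 edgeR called 0 in both directions, while 274 and 287 central loci were lower and 90 and 83 higher at p under 0.05 before adjustment. Without dcl2-mu1 replicate 1, 3 were called lower and 8 higher, and without either dcl2T library 13 were called lower. At an unadjusted p under 0.05, 402 (13.7%) were lower and 141 (4.81%) higher in the full fit. All tested loci gave 10.4% and 5.09%, and the rest of the chromosomes 8.70% and 5.20%. Without dcl2-mu1 replicate 2, 860 (29.3%) were lower, against 26.5% of all tested loci. DESeq2 called 101 lower (3.44%) and 28 higher (0.955%), where its background was 1.85% and 1.22%. By bins the lower share was 16.03% between 0.35 and 0.40 and 16.2% between 0.40 and 0.45, the highest along the chromosomes. The outer bins of the stretch had 9.93% between 0.30 and 0.35 and 12.7% between 0.45 and 0.50. Before the stretch the share was 13.2% between 0.20 and 0.25 and 13.7% between 0.25 and 0.30, so the excess did not follow its bounds.

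The median log2 fold change of the tested central loci was -0.44 in dcl2-mu1, against -0.24 for the rest of the 9 chromosomes. In dcl2T the medians were 0.06 and 0.07. With library size alone as scaling, the central medians were -0.12 in dcl2-mu1 and 0.24 in dcl2T. The medians in dcl2-mu1 depended on its libraries. They were -2.26 for the central loci and -1.35 for the rest without dcl2-mu1 replicate 2, which leaves only the shallow library, and -0.37 and -0.14 without replicate 1. The central median was the lower in both fits.

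Among the loci called lower in dcl2-mu1, Cluster_5748 (chromosome 1, 150770916 to 150771134) was the most abundant. It was 219 bp long and had 512 and 675 CPM in dcl2T, 35.9 and 30.6 in dcl2-mu1, and 648 and 331 in Dcl2. Only dcl2-mu1 was low, with a log2 fold change of -4.28 (SE 0.43) (edgeR, Benjamini-Hochberg adjusted p = 0.00198). Cluster_60726 (chromosome 7, 84210175 to 84212784) had 129 and 124 CPM in dcl2T, no read in dcl2-mu1, and 78.4 and 239 CPM in Dcl2. It was at least 319-fold lower in dcl2-mu1 than in Dcl2 (edgeR, Benjamini-Hochberg adjusted p = 0.00113).

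The other loci called lower in dcl2-mu1 were also low in dcl2T, without a call there. Cluster_26036 (chromosome 3, 96251937 to 96254767) had 1.61 and 3.66 CPM in dcl2T, no read in dcl2-mu1, and 63.8 and 101 CPM in Dcl2, at least 166-fold lower in dcl2-mu1. Cluster_25814 (chromosome 3, 89565408 to 89569231) had 2.07 and 3.25 CPM in dcl2T, no read in dcl2-mu1, and 39.3 and 59.2 CPM in Dcl2, at least 99.1-fold lower in dcl2-mu1. Cluster_35534 (chromosome 4, 93466309 to 93470321) had 2.29 and 3.86 CPM in dcl2T, 0 and 0.245 in dcl2-mu1 (1 read in all), and 31.5 and 37.1 in Dcl2. At these loci dcl2T lay between the other genotypes and overlapped neither. By edgeR with Benjamini-Hochberg adjustment, the p values for dcl2T were 0.0426, 0.093 and 0.191, and those for dcl2-mu1 were 0.00165, 0.00269 and 0.00547. Cluster_35970 (chromosome 4, 108978203 to 108981173) and Cluster_25825 (chromosome 3, 90011802 to 90015870) had the same order, and both had no read in dcl2-mu1. They were at least 63.1-fold and 60.3-fold lower there than in Dcl2.

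**Figure D4:**
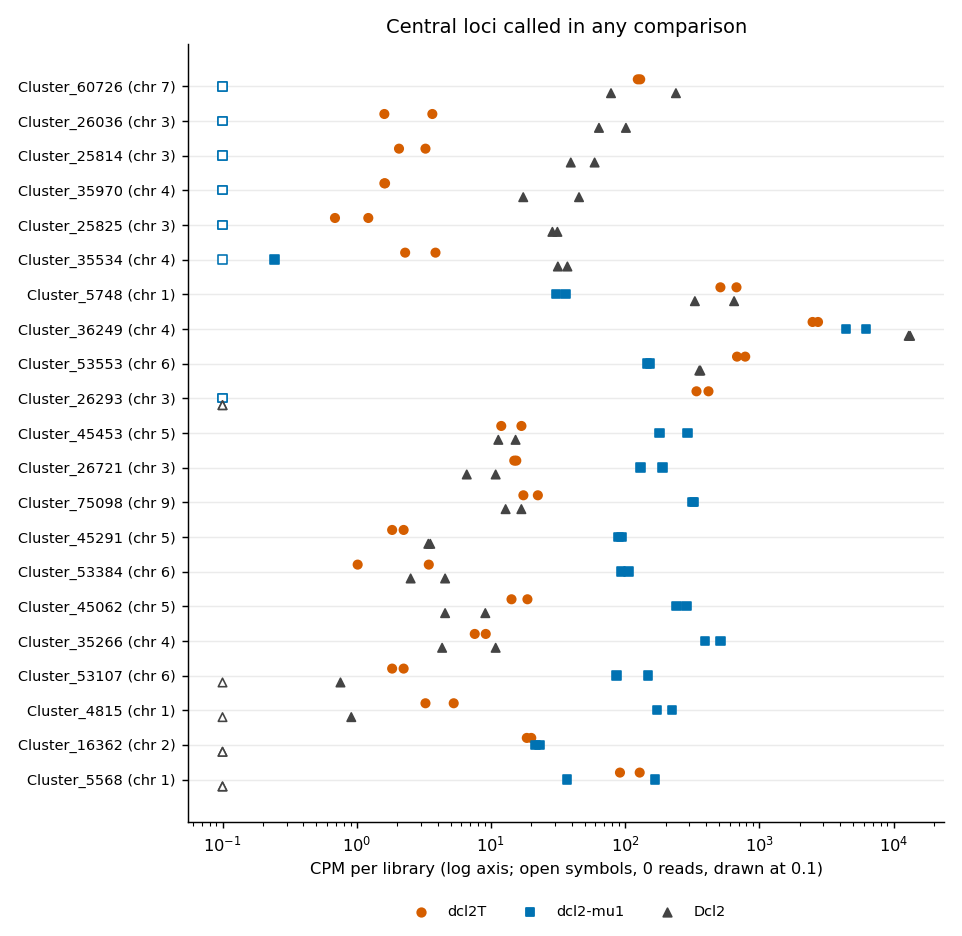
CPM per library on a log axis for the 21 central loci called in any comparison, ordered by fitted log2 fold change of dcl2-mu1 against Dcl2, with dcl2T above dcl2-mu1 above Dcl2 within each row. At 5 loci near the top dcl2T lies between dcl2-mu1 and Dcl2, while at most loci called higher in dcl2-mu1 the dcl2T and Dcl2 symbols lie near each other.

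Loci called higher in dcl2-mu1 had mostly low levels in both other genotypes. Cluster_35266 (chromosome 4, 85024391 to 85029155) had 7.57 and 9.15 CPM in dcl2T, 512 and 395 in dcl2-mu1, and 10.8 and 4.33 in Dcl2. The log2 fold change against Dcl2 was 5.48 (SE 0.53) (edgeR, Benjamini-Hochberg adjusted p = 0.00164). Cluster_75098 (chromosome 9, 77350572 to 77356174) had 17.4 and 22.4 CPM in dcl2T, 326 and 317 in dcl2-mu1, and 12.9 and 16.8 in Dcl2. Both were several kb long and far above the other libraries in each dcl2-mu1 library. The value for Cluster_75098 was 4.07 (SE 0.37) (edgeR, Benjamini-Hochberg adjusted p = 0.00121).

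Cluster_45062 (chromosome 5, 72302689 to 72306245) had 14.2 and 18.7 CPM in dcl2T, 286 and 242 in dcl2-mu1, and 9.08 and 4.55 in Dcl2. Cluster_45453 (chromosome 5, 83383260 to 83385759) had 11.9 and 16.9 CPM in dcl2T, 291 and 180 in dcl2-mu1, and 11.3 and 15.3 in Dcl2. Their log2 fold changes in dcl2-mu1 were 4.87 (SE 0.49) and 3.74 (SE 0.39), and the Benjamini-Hochberg adjusted p from edgeR 0.00198 and 0.0026. Cluster_5568 (chromosome 1, 145381745 to 145381765) was only 21 bp long and was not specific to dcl2-mu1. It had 128 and 91.5 CPM in dcl2T, 166 and 36.7 in dcl2-mu1, and no read in Dcl2, at least 306-fold higher in dcl2T and 283-fold in dcl2-mu1. Benjamini-Hochberg adjusted p from edgeR was 0.0165 in dcl2T and 0.004 in dcl2-mu1. The remaining calls higher in dcl2-mu1 fell outside the rule for named loci and were Cluster_4815, Cluster_26721, Cluster_53107, Cluster_45291 and Cluster_16362. Of these, Cluster_16362 was not specific to dcl2-mu1 either. It had 20.0 and 18.5 CPM in dcl2T, 23.1 and 21.5 in dcl2-mu1, and no read in Dcl2.

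Windows of 1 Mb gave 7 calls lower and 6 higher in dcl2-mu1 among the 394 central ones, against 25 (1.18%) and 28 (1.32%) among all 2125 windows. Counts this small did not separate the central windows from the background. Without Dcl2 replicate 1 the lower count was 2, and without dcl2-mu1 replicate 1 or 2 it was 13 or 22. Of the 7 lower windows, 5 were low in dcl2T as well. Besides the pair on chromosomes 2 and 4 given above, these lay on chromosome 4 between 111 and 112 Mb, chromosome 5 between 106 and 107 Mb, and chromosome 9 between 57 and 58 Mb. The second window on chromosome 4 had 5.51 and 6.10 CPM in dcl2T, 0 and 0.735 in dcl2-mu1, and 55.5 and 48.5 in Dcl2. That on chromosome 5 had 6.88 and 14.6 CPM in dcl2T, 2.56 and 2.20 in dcl2-mu1, and 67.8 and 69.0 in Dcl2. On chromosome 9 the sums were 8.72 and 9.76 CPM in dcl2T, 7.18 and 7.84 in dcl2-mu1, and 36.1 and 66.0 in Dcl2. In these 5 windows all 4 mutant libraries lay below both Dcl2 libraries, and the most abundant locus held between 16.03% and 34.6% of the counts. Both comparisons share the Dcl2 libraries, so the low values of the 2 mutants are not independent of each other.

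The 2 other lower windows, on chromosome 1 between 150 and 151 Mb and on chromosome 7 between 84 and 85 Mb, were led by Cluster_5748 and Cluster_60726, which held 79.9% and 80.1% of their counts, and were not low in dcl2T. The higher windows were mostly led by 1 locus too. With loci of at least 50 CPM left out, 1 window was called higher, 1 of the 6 above, and 6 were called lower in dcl2-mu1, of which 5 were among the 7 above. On chromosome 4 between 85 and 86 Mb, where Cluster_35266 held 80.8%, the sums were 47.7 and 57.3 CPM in dcl2T, 557 and 422 in dcl2-mu1, and 42.9 and 34.6 in Dcl2. On chromosome 7 between 71 and 72 Mb the leading locus held 33.7%, and the sums were 31.4 and 32.7 CPM in dcl2T, 142 and 113 in dcl2-mu1, and 29.8 and 18.2 in Dcl2.

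**Figure D5:**
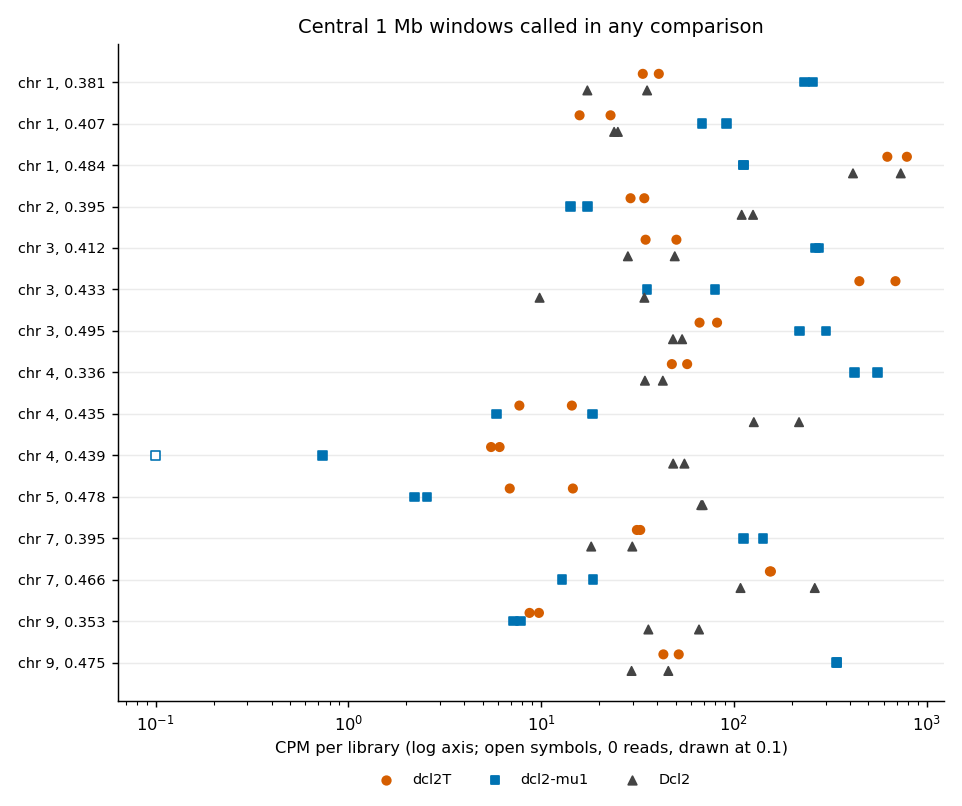
Summed CPM per library on a log axis for the 15 central windows of 1 Mb called in any comparison, labelled by chromosome and by position as a fraction of its length, with dcl2T above dcl2-mu1 above Dcl2 within each row. In the 5 windows on chromosomes 2, 4 (0.435 and 0.439), 5 and 9 (0.353) both mutants lie left of Dcl2, and in the others 1 mutant stands apart.

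The third comparison set the mutants against each other. Among tested central loci 4 (0.136%) were called lower in dcl2-mu1 than in dcl2T, against 0.199% of all tested loci, and 6 (0.205%) higher, against 0.164%. At an unadjusted p under 0.05 the shares were 9.96% lower and 3.14% higher, against 9.94% and 3.37% of all tested loci. On the rest of the 9 chromosomes 0.1345% and 0.146% were called, and 8.79% and 3.44% passed that unadjusted p. The median log2 fold change was -0.48 for the tested central loci and -0.31 for the rest. Against all tested loci neither pair of central shares stood apart. The lower share was 25.9% without dcl2-mu1 replicate 2, against 25.7% of all tested loci. It was 4.74% and 3.85% without dcl2T replicate 1 and 2, against 4.16% and 4.03%. Without dcl2T replicate 1 or 2 edgeR called 0 higher, beside 51 and 46 at an unadjusted p under 0.05, and DESeq2 called 24 lower (0.819%) and 26 higher (0.887%), where its background was 1.10% and 0.847%. The lower count was 1 without dcl2-mu1 replicate 1, 2 without Dcl2 replicate 1 and 1 without Dcl2 replicate 2, and the higher counts in these fits were 3, 1 and 1. Of the 394 central windows, 3 were called lower and 6 higher, against 17 (0.800%) and 26 (1.22%) of all 2125 windows. Without dcl2-mu1 replicate 2 the lower count of windows was 16, and without dcl2T replicate 2 the higher count was 3. With loci of at least 50 CPM left out, edgeR called 0 central windows lower and 2 higher, while 48 were lower at p under 0.05 before adjustment.

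The loci called in this comparison were mainly those named above. Cluster_26293, Cluster_5748 and Cluster_60726 were lower in dcl2-mu1, and Cluster_35266, Cluster_75098, Cluster_45062, Cluster_45453 and Cluster_45291 were higher. Cluster_53553 (chromosome 6, 83720406 to 83726680) had 146 and 153 CPM in dcl2-mu1, 784 and 681 in dcl2T, and 363 and 357 in Dcl2. The genotypes were fully separated, with Dcl2 in the middle. Between dcl2-mu1 and dcl2T its log2 difference was -2.50 (SE 0.30) (edgeR, Benjamini-Hochberg adjusted p = 0.00661). Cluster_53384 (chromosome 6, 79100352 to 79107688) had 93.3 and 106 CPM in dcl2-mu1, 3.44 and 1.02 in dcl2T, and 2.52 and 4.55 in Dcl2. Both dcl2-mu1 libraries were far above the 4 others, with a log2 difference of 5.27 (SE 0.70) (edgeR, Benjamini-Hochberg adjusted p = 0.00962).

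Replicates set the limit to these comparisons. Over the tested central loci the median absolute log2 difference between the libraries of a genotype, with 0.5 CPM added, was 0.60 in dcl2T, 1.30 in dcl2-mu1 and 0.86 in Dcl2, and on the rest of the chromosomes it was 0.61, 1.32 and 0.87. The spread of the central loci was thus close to that of the rest. Near-identical copies are common in repeat-rich regions, and how reads that align to several of them were placed is not known here, so values of single loci with such copies are uncertain.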

How the data were processed

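Small RNA of pollen was sequenced from dcl2T, dcl2-mu1 and Dcl2 plants (2 libraries each); the remaining 14 libraries were left out. The authors trimmed adapters with cutadapt, removed structural RNA reads with bowtie2, and placed and clustered reads with ShortStack at a minimum of 5 CPM. They retained size-biased clusters in later steps, and whether the table was so filtered, its genome build and the handling of reads with several placements are not given in the sources used here. The deposited values are raw counts per locus and library, with no normalization. A further column holds the sum of the 6 libraries.

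CPM was computed on the library total. Counts of the whole table were fitted with edgeR 4.0.16 in R 4.3.3 (filterByExpr with a minimum count of 10 and total of 15, TMM factors, 1 coefficient per genotype, glmQLFit and glmQLFTest), with Benjamini-Hochberg adjustment over 22558 loci. Standard errors were derived from the F statistic. Windows of 1 Mb were fitted likewise. Loci named were the most abundant member of each chromosome, the 3 longest, and per comparison and direction up to 5 called members of largest mean CPM whose libraries did not overlap, only 1 of those within 10 kb. Shares and detection were compared by exact permutation tests (scipy 1.17.1). The procedure was tried on simulated counts with large changes at abundant loci, which does not cover small changes or sparse loci. Members, lists and alternatives were chosen with earlier results of these data known. Alternatives were other scalings, DESeq2 1.42.0, filters, thresholds and bounds, a replicate block, and each library left out.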

Additional observations from a re-analysis of the deposited data

How the results depend on the processing

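The density ratio lay within the spread over chromosomes of its value of 0.656 under all 5 alternatives. The length ratio moved to 1.03 with at least 50 reads, and the abundance ratio to 0.884 with at least 1 read. Counts of called loci moved most. In dcl2T against Dcl2, 1 lower and 1 higher became 24 and 11 without the filter, 0 and 0 with the filter of 5 CPM, 37 and 3 with DESeq2, 0 and 2 with the 2 genotypes only, 2 and 3 at a wider threshold (log2 fold change of 1, adjusted p of 0.05), and 2 higher with library size alone. At an unadjusted p under 0.05, 107 and 229 loci were lower where edgeR called 0 with the filter of 5 CPM and with the 2 genotypes only, and 28 higher under that filter. In dcl2-mu1 against Dcl2, 7 lower and 10 higher became 75 and 22, 101 and 28 with DESeq2, 35 and 19 at that wider threshold, and 19 lower with the 2 genotypes only. In dcl2-mu1 against dcl2T, 4 lower and 6 higher became 25 and 16, 24 and 26, 7 and 14, and 2 higher with the 2 genotypes only and 10 with library size alone. With each library left out, the counts ranged from 0 to 1 lower and 0 to 2 higher, from 0 to 13 lower and 0 to 11 higher, and from 1 to 4 lower and 0 to 4 higher, in the same order of comparisons. With the replicate block the counts were 2 and 2, 19 and 14, and 4 and 11. Between same-numbered libraries of different genotypes the correlations of deviations were between -0.0122 and 0.0044 over the tested loci. Counting noise at low counts weakens such correlations, so they do not settle whether same-numbered libraries were handled together. The share of central loci lower in dcl2T at an unadjusted p under 0.05, 5.63%, ranged from 2.66% to 7.67% with libraries left out. Without the filter the share was 3.94%, and with the filter of 5 CPM it was 8.14%. That share and the windows below were chosen after seeing the data.

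Windows of 1 Mb called in dcl2T, 1 lower and 0 higher, became 5 and 2 with DESeq2, 2 lower without loci over 50 CPM, 1 higher with library size alone, and 0 lower, with 44 at an unadjusted p under 0.05, in edgeR with the replicate block. With libraries left out they ranged from 0 to 6 lower and 0 to 2 higher. In dcl2-mu1 against Dcl2, 7 and 6 became 13 lower with DESeq2, 4 and 2 in windows of 2 Mb, and 1 higher without loci over 50 CPM, with ranges of 2 to 22 and 4 to 9. Against dcl2T, 3 and 6 became 6 lower with DESeq2, 0 and 2 without loci over 50 CPM, and 1 higher in windows of 2 Mb, with ranges of 2 to 16 and 3 to 8.

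The share of library counts changed sign in dcl2T minus Dcl2, from -0.710 percentage points to 0.147 without the 10 most abundant members and 0.340 without the most abundant. In dcl2-mu1 minus Dcl2, -0.661 became 0.116 and 0.117 in these settings and 1.41 with a stretch of 0.25 to 0.55. In dcl2-mu1 minus dcl2T, 0.0491 became -0.162 with a stretch of 0.35 to 0.45, -0.0405 with no minimum of reads, -0.132 with counts of chromosomes 1 to 9 as the total, -0.0313 and -0.223 without the 10 or the 1 most abundant members, -0.636 for loci under 50 CPM, and ranged from -0.421 to 0.520 with libraries left out. Detection changed sign only with at least 20 counts, to -15.5, 66.5 and 82.0 loci. The causes were not tested. Of the refits of single called loci, 295 kept the call and 111 lost it, and 0 turned direction. Depth limits the dcl2-mu1 values most, since 1 read of replicate 1 is worth 0.513 CPM.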

Other observations

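Some central loci differed widely between the 2 libraries of a genotype. Cluster_36262 (chromosome 4, 117785698 to 117785776), 79 bp long and named after its values were seen, had 27.5 and 2742 CPM in dcl2T, 40.5 and 5597 in dcl2-mu1, and 27.2 and 40.1 in Dcl2. It was called in neither mutant. Among central loci that reached 50 CPM in a library of the genotype, a difference of at least 20-fold between its libraries was found at 5 of 125 in dcl2T, 7 of 157 in dcl2-mu1 and 3 of 124 in Dcl2. On the rest of the 9 chromosomes it was found at 18 of 954, 42 of 1085 and 14 of 915.

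On chromosome 6, 5 loci between 63615129 and 63768419 together held a mean of 4097 CPM. Cluster_52856, Cluster_52846 and Cluster_52849 had nearly equal values in every library, from 1033, 1018 and 1007 CPM in dcl2T replicate 1 to 743, 704 and 723 in dcl2-mu1 replicate 1 and 1379, 1372 and 1369 in Dcl2 replicate 1. Both dcl2-mu1 libraries were below the 4 others at 4 of the 5 loci. Whether these are copies that share reads was not tested.

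The same stretch of chromosome 10, which the rule leaves out, had 499 loci, or 16.7 per Mb against 21.5 on the rest of that chromosome, a ratio of 0.775 that lay within the range of the other 9. The 1 Mb window of chromosome 10 with the most loci lower in dcl2T at an unadjusted p under 0.05 was at 0.331 of its length, with 5 of 11 tested loci.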
